A study of Homo sapiens with 9 samples.

Results

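The genes described here are 9 genes of TGF-beta signalling measured in human A549 cells, a line from a lung adenocarcinoma, some of which carry an intergenic *ALK* fusion. They were taken by gene name from the deposited count table, and all 9 were found among its 26364 gene names. They comprise the ligand genes *TGFB1*, *TGFB2* and *TGFB3*, the activin subunit gene *INHBA*, the receptor genes *TGFBR1* and *TGFBR2*, the signal transducer *SMAD3*, its inhibitor *SMAD7* and the induced matrix gene *TGFBI*. The study asked what the *LOC388942-ALK* (*LA*) fusion does to these cells and what follows when *FOS* is edited in them. RNA from 9 libraries in 4 groups was sequenced: control (A549 WT, 2 libraries), LA (sgLOC388942 with sgALK, 2 libraries), sgScr (LA cells with a scramble guide, 3 libraries) and sg*FOS* (LA cells with guides against *FOS*, 2 libraries). Per the methods, A549 cells with Cas9 were the starting line, and LA cells were grown out from single cells by limiting dilution, so that a clone's own differences and the fusion cannot be told apart. The labels do not say which *FOS* guide was used in which sg*FOS* library. Nothing says that replicates came from separate cultures, so p-values measure only the spread between these libraries, which may be technical.

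TGF-beta ligands are secreted in a latent form that binding proteins store in the matrix and integrins release. The active ligand brings together the type II and type I receptors, the type I receptor phosphorylates SMAD3 and its relative SMAD2, and these enter the nucleus with SMAD4 to switch genes on or off. SMAD7 is itself induced by the pathway and blocks the receptors. In epithelial tumour cells the pathway is known for growth arrest on the one side and for matrix production, motility and epithelial-mesenchymal transition on the other. FOS pairs with JUN proteins to form the AP-1 factor, which can act together with SMAD proteins at some promoters.

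Both *FOS* guides are shown because the contrast between sg*FOS* and sgScr rests on them. Each has 19 bases and matches exon 4, the last of the 4 exons of *FOS* on GRCh37 (hg19), with its PAM in capitals. sgFOS-1 lies at chr14:75748005-75748023 on the plus strand and sgFOS-2 at chr14:75747953-75747971 on the minus strand.
sgFOS-1: ttcgtcttcacctaccccgAGG
sgFOS-2: ggtgaccaccggagtgcacAGG

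The 250 bases before the start of *TGFBI*, the member that differed most between sg*FOS* and sgScr, and of *TGFB2*, the member that differed most between LA and control, are given as RefSeq has them (table of build GRCh38.p14). Each RefSeq window of 300 bases was placed by its single exact match on GRCh37, at chr5:135364427-135364676 for these bases of *TGFBI* and at chr1:218518428-218518677 for those of *TGFB2*, both on the plus strand. Capitals mark GC boxes (GGGCGG or its complement CCGCCC) in *TGFBI* and the TATA box (TATAAA) in *TGFB2*.
TGFBI: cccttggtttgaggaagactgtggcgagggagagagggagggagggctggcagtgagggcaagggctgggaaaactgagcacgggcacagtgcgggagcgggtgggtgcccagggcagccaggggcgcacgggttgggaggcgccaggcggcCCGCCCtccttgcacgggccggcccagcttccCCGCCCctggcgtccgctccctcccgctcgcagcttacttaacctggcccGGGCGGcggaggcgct
TGFB2: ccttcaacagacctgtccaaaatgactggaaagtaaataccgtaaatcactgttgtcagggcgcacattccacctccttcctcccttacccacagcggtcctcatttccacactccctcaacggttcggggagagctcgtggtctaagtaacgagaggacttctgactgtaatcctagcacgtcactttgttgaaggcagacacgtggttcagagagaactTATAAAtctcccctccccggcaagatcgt

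The windows of all 9 members were searched on both strands for 5 motifs. The AP-1 motif TGANTCA, the CRE motif TGACGTCA and the paired SMAD box GTCTAGAC were in none of the 9 windows, and in 7.76%, 1.98% and 0.201% of all 27305 RefSeq promoter windows of the same length. The GC box was in the windows of *TGFB1*, *SMAD3* and *TGFBI* and in 44.6% of all windows. TATAAA was in those of *TGFB2*, from -29 to -24 counted from the start, and *INHBA*, from -11 to -6, and in 12% of all windows. These are matches of letters in short windows and say nothing on whether a factor binds there or elsewhere.

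Libraries held 14507228 to 20456341 counts. The epithelial keratin genes *KRT8*, *KRT18* and *KRT7* were at 1647 CPM (counts scaled to a common library depth) or more in every library, whereas the other epithelial markers were lower, *EPCAM* at 3.01 to 13.1 CPM and *CDH1* at 18.6 to 102 CPM. The summed level of the 5 epithelial markers was 13480 to 24520 CPM in control, 7832 to 12840 in LA, 6877 to 7307 in sgScr and 8109 to 8332 in sg*FOS*, and its part in the results was not tested. Of markers of other cells, *PTPRC* and *CD3E* had 0 counts in all 9 and *DCN* at most 1 count. *COL1A1*, of the fibroblast list, was at 6.38 to 17.5 CPM. *CD14*, also a marker of the leukocyte list, was at 8.12 to 42.6 CPM. The libraries labelled LA and sgScr, which both carry the fusion by their labels, stood apart from each other at single genes that were picked after their values were seen. *ADGRL2* had 0 counts in both LA libraries, which allows up to 3 counts in each, against 153 and 341 counts in control and 158 to 202 in sgScr. *CDH2*, which encodes N-cadherin, had 1088 and 1308 counts in LA and 111 to 117 in sgScr. Between the control libraries the squared deviations of counts were 134 times those of sampling noise (chi-square per degree of freedom over genes). This ratio was 62.3 between the LA libraries, but only 1.76 to 2.72 in sgScr and sg*FOS* pairs. *FOS* itself was at 9.15 and 10.8 CPM in control, 92.8 and 335 CPM in LA, 196 to 203 CPM in sgScr and 68.4 and 74.1 CPM in sg*FOS*, and was lower in sg*FOS* than in sgScr by a log2 fold change of -1.48 (SE 0.04, edgeR adjusted p = 2.0e-25).

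Levels between genes were compared as CPM per kilobase of transcript. *TGFBI*, a secreted matrix protein gene, stood first in every group, at 203 ± 35.4 (SD, n = 2) in control, 368 ± 1.02 (n = 2) in LA, 226 ± 3.41 (n = 3) in sgScr and 360 ± 8.54 (n = 2) in sg*FOS*. *TGFB1* came next in control at 128 ± 56.9 CPM per kilobase, and *SMAD3* in sgScr and sg*FOS* at 81.5 ± 1.5 and 85.5 ± 0.14. In LA, *TGFB1* (80.0 ± 25.2) and *SMAD3* (78.6 ± 8.78) overlapped in their libraries and could not be ordered. *TGFBR2* was above *TGFBR1* in every group, for example at 45.3 ± 0.29 against 9.20 ± 0.45 CPM per kilobase in sgScr. Of the ligand genes, *TGFB2* was at 3.25 ± 1.46 in control and between 11.9 and 13.9 in the means of the other groups, and *TGFB3* was below 0.6 CPM per kilobase in every group mean. *TGFBR1* and *SMAD7* overlapped in control and sg*FOS*, as did *TGFBR1*, *TGFB2* and *SMAD7* in LA. *INHBA* was the lowest member in all 4 groups.

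**Figure D1:**
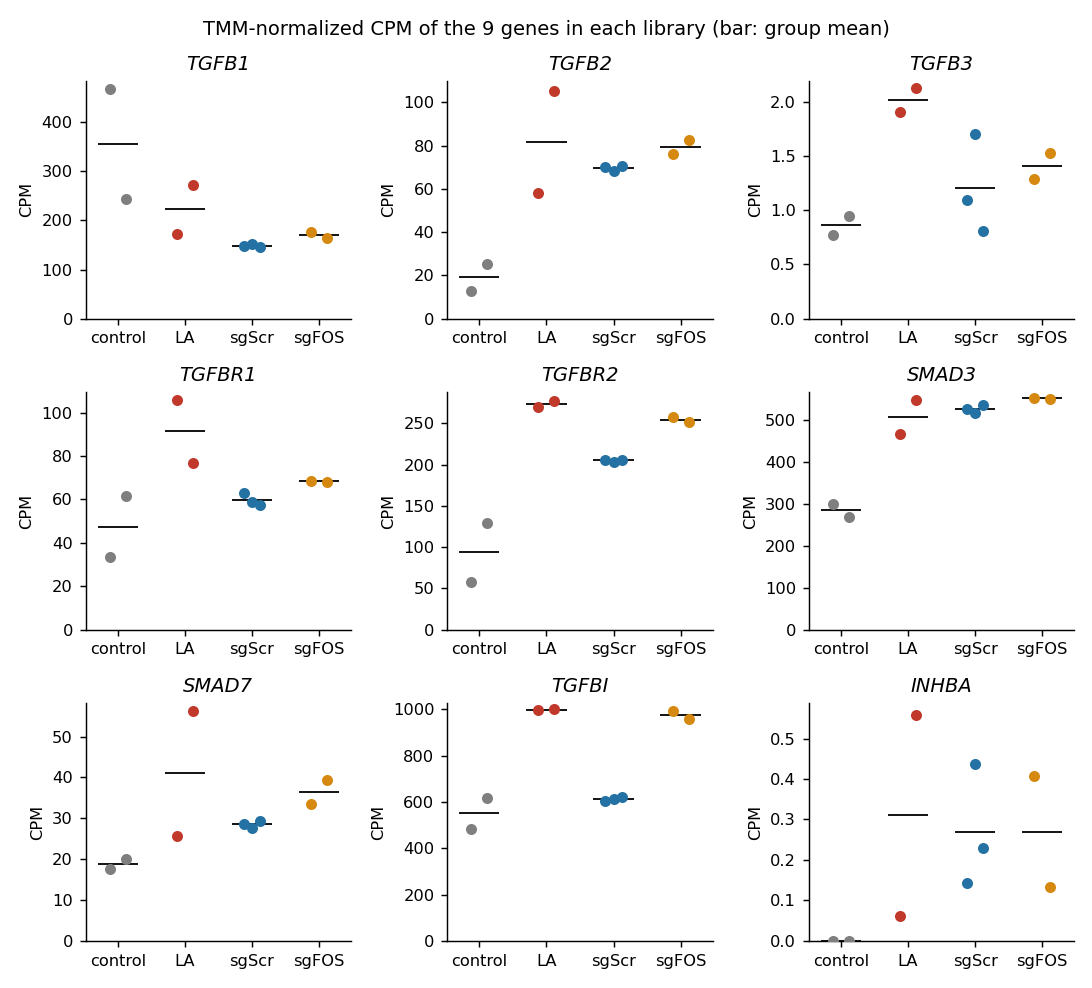
Each panel plots the TMM-normalized CPM (y axis, starting at 0) of 1 member, with a point for each library and a bar for the mean of its group. *TGFB2* is at 13.0 and 25.1 CPM in control and at 57.9 CPM or more in the other libraries, and *TGFBI* is at 959 to 1000 CPM in LA and sg*FOS* but at 483 to 622 CPM in control and sgScr.

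The first comparison, LA against control, addresses what accompanies the fusion. The ligand gene *TGFB2* and the receptor gene *TGFBR2* were higher in LA cells, by log2 fold changes of 2.06 and 1.51. No member was called lower, and the remaining 6 tested members were not called at an edgeR adjusted p of 0.05. Among all 14425 genes tested, 9.57% were called higher and 9.94% lower, beside 2 of the 8 tested members called higher. Scaled by library size alone, 1601 genes were higher and 682 lower, in place of 1380 and 1434. The median log2 fold change of the 8 was 1.00, and that of all genes tested 0.04.

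Of the ligand genes, *TGFB2* had 201 and 426 counts in control and 943 and 1884 in LA, that is 13.0 and 25.1 against 57.9 and 105 CPM. Both LA libraries were above both control libraries, and the log2 fold change was 2.06 (SE 0.45, edgeR adjusted p = 0.00353), higher than in 96.2% of the genes tested. The call was lost without LA replicate 2 (log2 fold change 1.60, edgeR adjusted p = 0.198). An antisense gene, *TGFB2-AS1*, overlaps *TGFB2* and held 2 to 16 counts in a library. Whether reads were counted by strand is not given in the sources used here.

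*TGFB1* was the tested member with a negative difference. It had 467 and 244 CPM in control and 173 and 272 CPM in LA. The groups overlapped, and the log2 fold change of -0.70 was not called (SE 0.43, edgeR adjusted p = 0.257). It was -1.16 without control replicate 2, but -0.21 without control replicate 1 and -0.44 without LA replicate 1. *TGFB3* was at 0.78 and 0.94 CPM (12 and 16 counts) in control and 1.90 and 2.12 CPM (31 and 38 counts) in LA. Here the groups did not overlap, but the log2 fold change of 1.19 was not called (SE 0.75, edgeR adjusted p = 0.268).

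*INHBA*, whose product dimerizes to activin A, had 0 counts in both control libraries and 1 and 10 counts in LA. It was too low for the test. Set against 3 counts in each control library (0.186 CPM), the LA mean of 0.310 CPM was 1.67-fold higher. That ratio rests on LA replicate 2, as LA replicate 1 (0.0614 CPM) lay below the limit. It is therefore no lower bound for LA. The overlapping *INHBA-AS1* held 0 to 2 counts.

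*TGFBR2*, the type II receptor gene, was at 57.9 and 129 CPM in control and at 270 and 277 CPM in LA. The LA libraries lay close together, whereas the control libraries lay far apart. The log2 fold change was 1.51 (SE 0.44, edgeR adjusted p = 0.0184), and the call was lost without control replicate 1 (1.01, adjusted p = 0.0970), LA replicate 1 (1.5, 0.222) or LA replicate 2 (1.52, 0.249). *TGFBR1*, the type I receptor gene, was at 33.4 and 61.7 CPM in control and 106 and 76.9 CPM in LA. The groups did not overlap, and the log2 fold change of 0.91 was not called (SE 0.42, edgeR adjusted p = 0.124). It was 0.50 without control replicate 1 and 1.36 without control replicate 2.

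*SMAD3* was at 301 and 270 CPM in control and 468 and 548 CPM in LA, with a log2 fold change of 0.81 (SE 0.41, edgeR adjusted p = 0.163). *SMAD7* was at 17.5 and 19.9 CPM in control and 25.7 and 56.2 CPM in LA, with 1.10 (SE 0.45, adjusted p = 0.0832) and with 0.46 when LA replicate 2 was left out. *TGFBI* was at 483 and 619 CPM in control and 997 and 1000 CPM in LA, with 0.83 (SE 0.42, adjusted p = 0.165). In all 3 genes both LA libraries were above both control libraries and none was called. Over the members, 8 of 9 and 7 of the 8 tested had both LA libraries above both controls, a pattern that 33.8% of all genes tested showed.

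The fold changes of this comparison moved with transcript length across genes (Spearman rho 0.58 over genes, which are not independent replicates). In sgScr against control, which shares the control libraries, rho was 0.59. Between the control libraries themselves the log2 difference also moved with length (rho 0.36). It was -0.03 between the LA libraries and -0.07 to 0.04 within sgScr and sg*FOS*. With GC content, rho was -0.31 in LA against control, -0.38 in sgScr against control and -0.07 in sgScr against LA. In sg*FOS* against sgScr rho was 0.26 with GC content and -0.01 with length. The source of these trends was not tested. A loess correction for length and GC content was set beside the fold changes. With it, *TGFB2* stayed called at 1.41 (edgeR adjusted p = 0.0265) and *TGFBR2* at 1.09 (adjusted p = 0.0466). *TGFBR1*, whose transcript of 6492 bases is the longest among the members, went from 0.91 to 0.15, *SMAD3* (6464 bases) from 0.81 to 0.12 and *TGFB1* from -0.70 to -0.31. *SMAD7* at 1.02, *TGFB3* at 1.03 and *TGFBI* at 0.90 moved little. The median of the members was 0.96 after correction, against -0.04 for all genes tested. Scaling by library size alone shifted the median of all genes by 0.33 in LA against control and by 0.20 in sgScr against control (log2). In bulk libraries such as these, fewer cells of a type and less RNA per cell cannot be told apart.

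**Figure D2:**
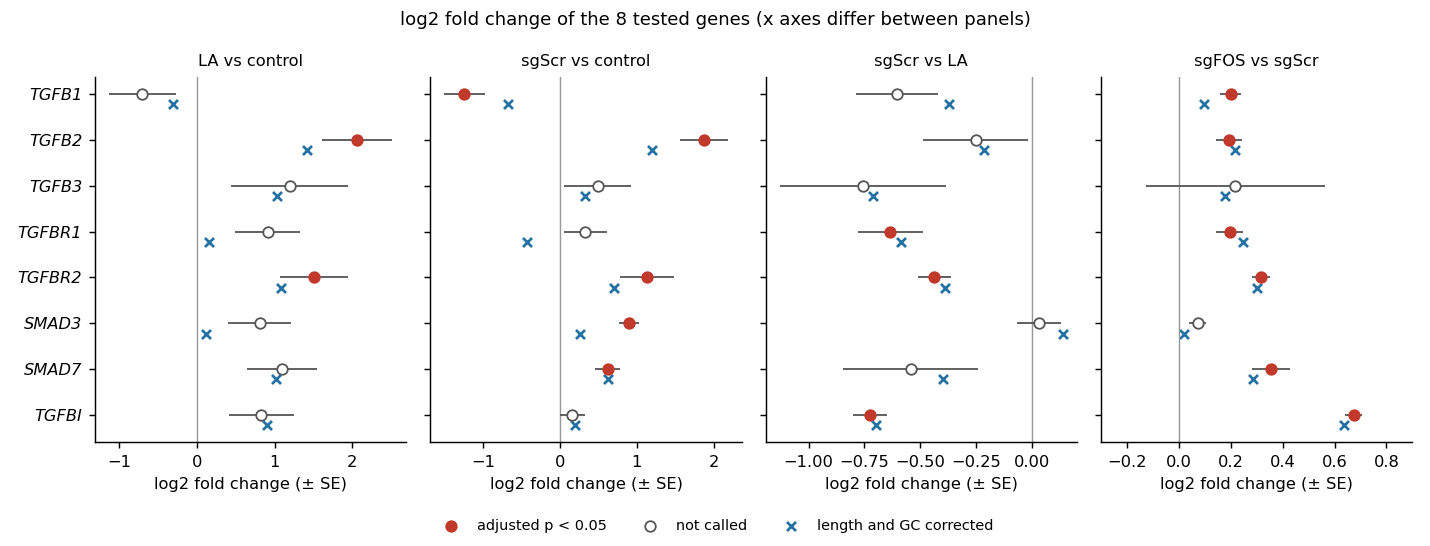
The log2 fold change (x axis) of the 8 tested members in each of the 4 comparisons, with bars for its standard error, filled points for an edgeR adjusted p under 0.05, open points for the others and crosses for values corrected for transcript length and GC content. *TGFB2* lies at 2.06 in LA against control and 1.87 in sgScr against control, and all 8 members lie above 0 in sgFOS against sgScr, where the largest is *TGFBI* at 0.67.

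The comparison of sg*FOS* with sgScr asks what follows the *FOS* guides within fusion cells. The 6 members *TGFBI*, *SMAD7*, *TGFBR2*, *TGFB1*, *TGFBR1* and *TGFB2* rose, and none was called lower. The changes were small, with *TGFBI* at 1.60-fold and the other 5 between 1.14-fold and 1.28-fold. Of the 14196 genes tested 12.2% were called higher and 10.5% lower, beside 6 and 0 of the 8 tested members. The median log2 fold change of the members was 0.21 and that of all genes -0.0015. The biological coefficient of variation over genes was 0.03 in these 5 libraries and 0.33 in those of LA and control.

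*TGFBI* was at 603, 613 and 622 CPM in sgScr and 991 and 959 CPM in sg*FOS*, with 10817 to 14618 counts behind each value. Every sg*FOS* library was well above every sgScr library. The log2 fold change was 0.67 (SE 0.03, edgeR adjusted p = 1.0e-18), higher than in 97.2% of all genes tested, and was 0.63 once corrected for length and GC content.

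Both receptor genes were higher. *TGFBR2* was at 206, 204 and 206 CPM in sgScr and 258 and 251 CPM in sg*FOS*, a log2 fold change of 0.32 (SE 0.04, edgeR adjusted p = 8.5e-09). *TGFBR1* was at 62.9, 58.8 and 57.3 CPM in sgScr and 68.5 and 68.1 CPM in sg*FOS*. Its log2 fold change of 0.20 (SE 0.05, edgeR adjusted p = 0.00482) was not called by DESeq2 (adjusted p = 0.0522) or without sg*FOS* replicate 1 (edgeR adjusted p = 0.0560).

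Of the ligand genes, *TGFB1* was at 148, 153 and 145 CPM in sgScr and 176 and 164 CPM in sg*FOS*, with a log2 fold change of 0.20 (SE 0.04, edgeR adjusted p = 0.000206). The groups did not overlap, but once corrected for length and GC content the value was 0.10 and was not called (adjusted p = 0.134). *TGFB2* was at 70.2, 68.2 and 70.6 CPM in sgScr and 76.0 and 82.7 CPM in sg*FOS*, with 0.19 (SE 0.05, edgeR adjusted p = 0.00313). That call was lost without sg*FOS* replicate 2 (0.13, adjusted p = 0.189). *TGFB3* at 14 to 35 counts and *INHBA* at 2 to 9 counts overlapped between the groups.

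*SMAD7*, the feedback inhibitor, was at 28.7, 27.6 and 29.4 CPM in sgScr and 33.4 and 39.4 CPM in sg*FOS*, with a log2 fold change of 0.36 (SE 0.07, edgeR adjusted p = 0.000299). Without sg*FOS* replicate 2 it was 0.23 and not called (adjusted p = 0.0874). *SMAD3* was at 517 to 536 CPM in sgScr and at 552 and 553 CPM in sg*FOS*, a log2 fold change of 0.07 that was not called (SE 0.03, adjusted p = 0.121). Over the members, 7 of 9 had both sg*FOS* libraries above all sgScr libraries, a pattern shown by 24.0% of the genes tested. A fit of all 9 libraries together, in which the wider spread of control and LA enters, called none of the members and none of the genes in this comparison. At an unadjusted p under 0.05 that fit counted 444 genes and 1 member, and DESeq2 on the 5 libraries called 1817 genes.

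**Figure D3:**
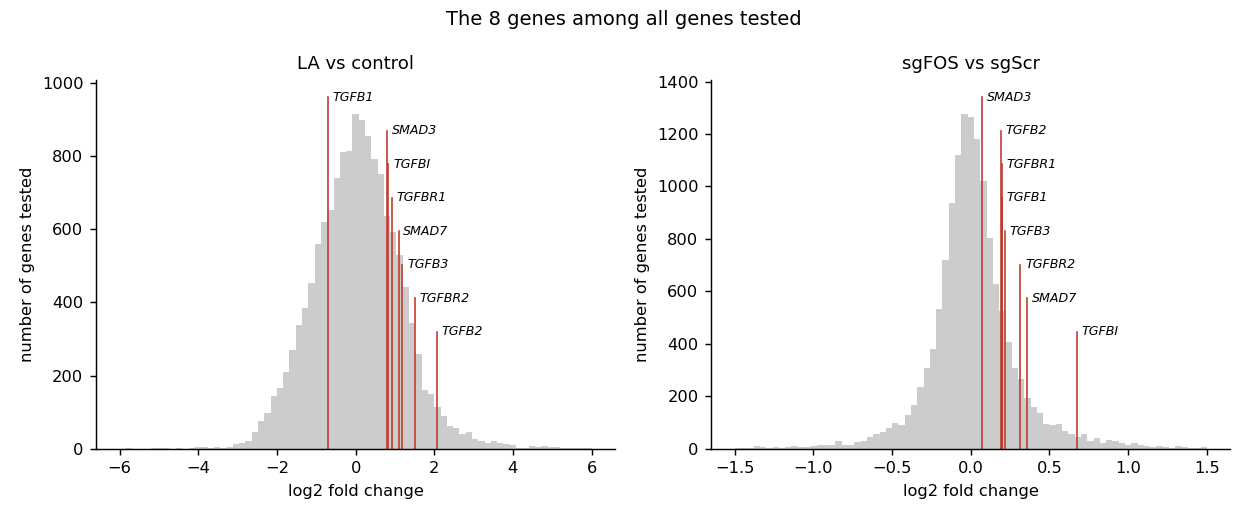
The number of genes tested (y axis) by log2 fold change (x axis, in bins) in LA against control and in sgFOS against sgScr, with a red line for each of the 8 tested members, whose height carries no value. The axes leave out 38 genes beyond 6 in LA against control and 32 genes beyond 1.5 in sgFOS against sgScr in either direction. *TGFB2* lies above 96.2% of the genes in the first panel and *TGFBI* above 97.2% in the second.

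Cells with the fusion and the scramble guide were set against control cells, a comparison that shares its control libraries with the first. *TGFB2*, *TGFBR2*, *SMAD3* and *SMAD7* were higher in sgScr, and *TGFB1* was lower. These are 4 and 1 of the 8 tested members, beside 19.8% of 14482 genes called higher and 21.7% called lower. The median log2 fold change of the members was 0.55, and that of all genes 0.02.

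*TGFB2*, at 68.2 to 70.6 CPM in sgScr against 13.0 and 25.1 in control, had a log2 fold change of 1.87 (SE 0.31, edgeR adjusted p = 0.00913), and 1.20 after correction. *TGFB1*, at 145 to 153 CPM against 467 and 244, had -1.24 (SE 0.26, adjusted p = 0.0154), and -0.68 after correction (adjusted p = 0.00528). The sgScr libraries of both genes lay outside the range of the controls. *TGFBR2* had 1.13 (SE 0.35, edgeR adjusted p = 0.0441), *SMAD3* 0.90 (SE 0.13, adjusted p = 0.00771) and *SMAD7* 0.62 (SE 0.16, adjusted p = 0.0262). After correction *SMAD7* stayed at 0.63 (adjusted p = 0.0298), whereas *TGFBR2* at 0.70 (adjusted p = 0.0623) and *SMAD3* at 0.26 (adjusted p = 0.0671) were no longer called. Leaving out any one sgScr library, with the fewer libraries that remain, ended all 5 calls, at edgeR adjusted p between 0.0552 and 0.124. Leaving out a control library moved the values of these genes. Without control replicate 1, *TGFB1* was at -0.71, *TGFB2* at 1.47, *TGFBR2* at 0.66, *SMAD3* at 0.97 and *SMAD7* at 0.52. Without control replicate 2, *TGFB1* was at -1.64, *TGFB2* at 2.43, *TGFBR2* at 1.83, *SMAD3* at 0.82 and *SMAD7* at 0.71.

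*TGFBR1* and *TGFBI* overlapped with control and were not called, at 0.33 (SE 0.28, edgeR adjusted p = 0.369) and 0.16 (SE 0.17, adjusted p = 0.464). The sign of *TGFBR1* turned with the correction (-0.43, adjusted p = 0.0179), and without control replicate 1 both were near 0, at -0.05 and -0.01. Without control replicate 2 they were at 0.85 and 0.35. *TGFB3* was at 0.49 (SE 0.44, adjusted p = 0.395). *INHBA* had 3, 9 and 4 counts in sgScr. Its sgScr mean of 0.270 CPM was 1.46-fold the limit that 0 counts in each control library allows (0.186 CPM). sgScr replicate 1 (0.143 CPM) lay below that limit.

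The LA and sgScr groups carry the fusion alike by their labels, and the sources used here do not say whether they came from the same clone. The clone, the scramble guide and the making of the libraries cannot be told apart between them. *TGFBI*, *TGFBR1* and *TGFBR2* were lower in sgScr than in LA. No member was called higher. Of 14521 genes tested 10.6% were called higher and 12.3% lower, and the median log2 fold change was -0.57 for the members and -0.02 for all genes. *TGFBI* had -0.73 (SE 0.08, edgeR adjusted p = 0.00369), *TGFBR1* -0.63 (SE 0.14, adjusted p = 0.0290, and -0.37 without LA replicate 1) and *TGFBR2* -0.44 (SE 0.08, adjusted p = 0.0137). Leaving out any one sgScr library ended these 3 calls, *TGFBI* by a narrow margin (adjusted p between 0.0501 and 0.0518) with a log2 fold change that stayed between -0.74 and -0.71.

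The other members were not called between sgScr and LA. *TGFB1* was at -0.60 (SE 0.19, edgeR adjusted p = 0.0622), and was called by DESeq2 (adjusted p = 0.0212) and after correction (edgeR adjusted p = 0.0252). Its value was -0.88 without LA replicate 1 and -0.24 without LA replicate 2. *TGFB3* was at -0.76 (SE 0.37, adjusted p = 0.186). *TGFB2* at -0.25, *SMAD7* at -0.54 and *SMAD3* at 0.03 overlapped between the groups. All 3 turned sign when LA replicates were left out in turn, *TGFB2* from -0.60 without LA replicate 1 to 0.25 without LA replicate 2, *SMAD7* from -0.98 to 0.13 and *SMAD3* from -0.06 to 0.15. The difference of *TGFBI* between sgScr and LA and that between sg*FOS* and sgScr share the sgScr libraries. Its levels were 997 and 1000 CPM in LA, 603 to 622 CPM in sgScr and 959 and 991 CPM in sg*FOS*.

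Beyond the 9 members, 76 other genes of the pathway were read from the same fits, in 5 roles. In LA against control 14 of 68 tested were higher and 2 lower, beside 9.57% and 9.94% of all genes. After correction 9 were higher and 2 lower, beside 743 and 922 of all 13985 genes then tested. The lower calls before it, *ID1* and *ID3* (edgeR adjusted p = 0.0321 and 0.0171), were both lost after it (0.522 and 0.375). Those after it were *SMAD9* and *TSC22D1* (edgeR adjusted p = 0.0425 and 0.0204). Of the genes for ligands, storage and activation 4 of 13 were higher and none lower, led by *ITGB6* (2.94, edgeR adjusted p = 0.00328), a subunit of an integrin that releases latent TGF-beta, which had 11 and 25 counts in control and 183 and 108 in LA. *TGFBR3*, the co-receptor betaglycan, was the 1 of 7 receptor genes called (1.32, adjusted p = 0.0385), a call lost after correction (0.57, adjusted p = 0.296). *EP300*, a histone acetyltransferase that SMAD complexes recruit, led the 2 of 8 SMADs and partners that were higher (2.19, adjusted p = 0.00147, and 1.36 after correction). None of the 13 inhibitors was called. Of 27 target genes 7 were higher and 2 lower, the largest change being that of *CTGF* (2.90, adjusted p = 0.00135), a matricellular protein gene with 178 and 647 counts in control and 1815 and 4844 in LA.

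**Figure D4:**
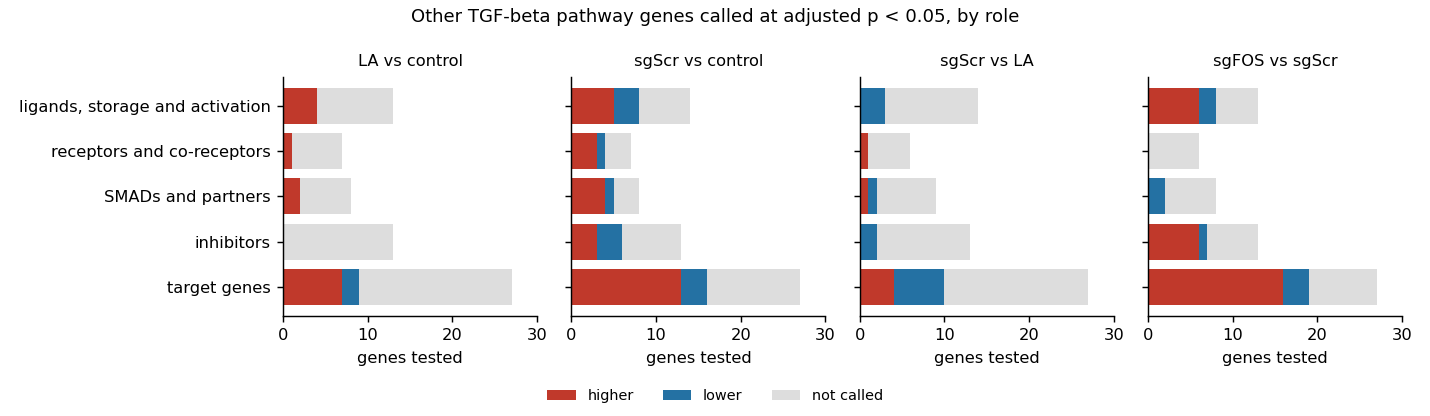
Bars show, for each role of the other pathway genes (y axis) and each comparison, how many of the genes tested (x axis) were called higher (red), lower (blue) or not called (grey) at an edgeR adjusted p under 0.05. Of 27 target genes 16 were higher and 3 lower in sgFOS against sgScr, and 7 higher and 2 lower in LA against control.

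In sg*FOS* against sgScr 28 of 67 tested genes of this list were higher and 8 lower, beside 12.2% and 10.5% of all genes. After correction 24 were higher and 8 lower, beside 1250 and 1417 of all 13786 genes then tested. The lower calls before and after it were not all the same genes. The target genes held 16 of the higher and 3 of the lower calls, among 27 tested. *CDKN1A*, the cell cycle inhibitor p21, changed most, from 118, 111 and 119 CPM in sgScr to 275 and 264 CPM in sg*FOS* (1.22, SE 0.04, edgeR adjusted p = 6.5e-25). *IL11* (1.10), the contractile genes *ACTA2* (0.96) and *TAGLN* (0.90) and the collagen gene *COL4A1* (0.74) were also called higher. The lower calls were *SNAI1* (-0.50, adjusted p = 0.0164), an epithelial-mesenchymal transition factor, *ID1* (-0.26) and *BHLHE40* (-0.22). The median over the 27 was 0.28.

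Of the inhibitors 6 of 13 were higher and 1 lower in sg*FOS*, led by *PMEPA1* (0.89, edgeR adjusted p = 1.5e-19), a membrane protein gene that restrains SMAD signalling, at 98.3, 96.8 and 93.7 CPM in sgScr and 183 and 172 CPM in sg*FOS*. Of the genes for ligands, storage and activation 6 of 13 were higher and 2 lower, with *ITGB6* at 0.86 (adjusted p = 0.00771). Of the 6 receptor genes tested none was called, but *ENG* was called lower after correction (-0.78, edgeR adjusted p = 0.0488). *SMAD4* (-0.16, adjusted p = 0.0329) was the larger of the 2 SMADs and partners called lower, and neither was called after correction.

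**Figure D5:**
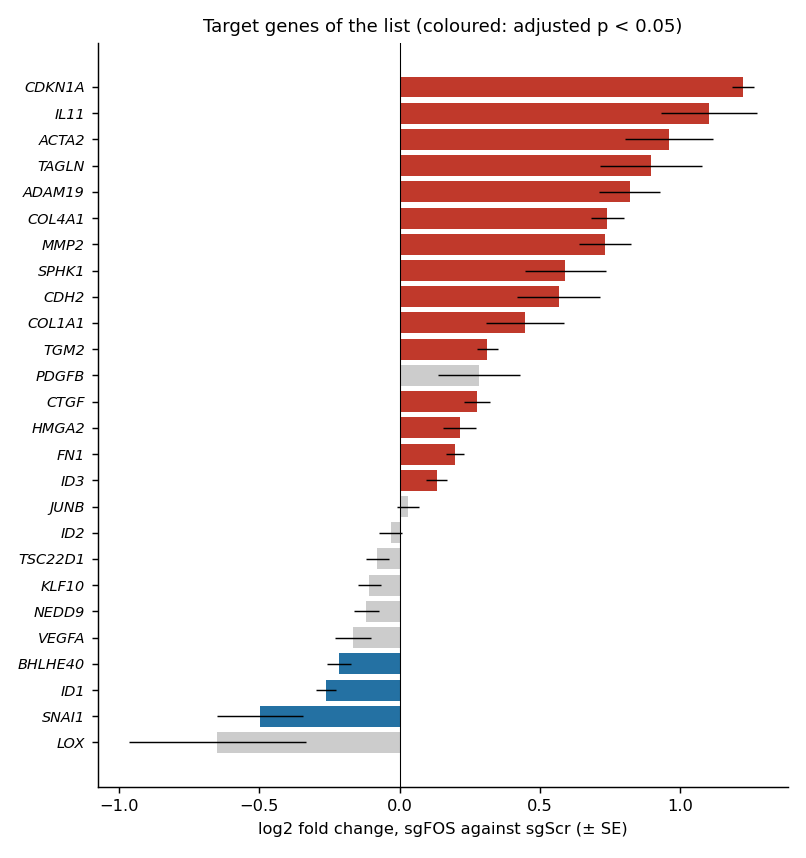
The log2 fold change in sgFOS against sgScr (x axis, with bars for the standard error) of 26 of the 27 target genes tested, with red for genes called higher, blue for genes called lower and grey for genes not called at an edgeR adjusted p under 0.05. *CDKN1A* at 1.22 and *IL11* at 1.10 lie at the upper end, and *SNAI1* at -0.50 is the lowest gene called.

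In sgScr against control 28 of 69 tested genes of the list were higher and 11 lower, beside 19.8% and 21.7% of all genes. After correction 24 were higher and 17 lower, beside 2482 and 2922 of all 14043 genes then tested. The largest called changes by role were *INHA* (-2.04, edgeR adjusted p = 0.0345, lost after correction at -0.92, adjusted p = 0.126), *ACVRL1* (-2.46, adjusted p = 0.0374, 1 to 19 counts), *EP300* (1.88, adjusted p = 0.00420, and 1.16 after correction), *SMURF2* (1.58, adjusted p = 0.0319, and 0.90 after correction) and *COL4A1* (1.70, adjusted p = 0.00917). In sgScr against LA 6 of 69 were higher and 12 lower, beside 10.6% and 12.3% of all genes. *CDH2* (-3.63, adjusted p = 0.000352), *ITGB6* (-2.27, adjusted p = 0.00751), *SMAD2* (-0.69, adjusted p = 0.00528), *FSTL3* (-0.73, adjusted p = 0.00604) and *ACVR2B* (0.67, adjusted p = 0.0195) had the largest changes among the genes called in their roles. *CDH2* had a log2 fold change of 2.41 in LA against control (adjusted p = 0.00116) and of -1.17 in sgScr against control (adjusted p = 0.00921), opposite in sign between groups that both carry the fusion by their labels.

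*TGFB2* and *TGFBR2* had the widest range of group means among the members, at 2.10 and 1.65 on the log2 CPM scale. Among the 11899 genes averaging 50 counts or more, the log2 CPM of *MYOF* (Pearson r = 0.997), *CHST15* (0.995) and *TNS3* (0.994) followed that of *TGFB2* most closely over the 9 libraries, and *DCBLD1* (0.994), *MYBL1* (0.994) and *EFCAB14* (0.993) that of *TGFBR2*. The 9 libraries fall into 4 groups and share their depth and length trends, so that these correlations describe the libraries at hand.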

How the data were processed

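RNA-seq was done in 9 A549 libraries. The authors deposited whole-number counts of reads per gene without normalization. Per the labels and methods, stranded mRNA libraries were sequenced in pairs and aligned to hg19 with STAR 2.7.10b, and DESeq2 1.26.0 was used for differential expression. How reads were counted (program, annotation, use of strand) is not given in the sources used here.

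Counts were tested in R 4.3.3 with the quasi-likelihood test of edgeR 4.0.16 (TMM, filterByExpr), two-sided, on the libraries of each comparison alone, and p-values were adjusted by the Benjamini-Hochberg method over all genes tested. A gene was called at an adjusted p under 0.05. The standard error (SE) is the absolute log2 fold change divided by the square root of the quasi-likelihood F statistic. CPM are TMM-normalized. Positions, transcript lengths and GC content came from GENCODE on GRCh37, and 23831 gene names had a length. The correction used loess curves (span 0.5) per library as offsets. Alternatives were DESeq2 1.42.0, other scalings and filters, all 9 libraries in a fit, the replicate number as a block, other thresholds and leaving out each library. Procedures were tested on simulated data. For a gene at 0, up to 3 counts were taken as possible, which covers counting error only.

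The members, the list of 76 other pathway genes and the tests were chosen with earlier results of these data known. All members are named, with *FOS* and, in each role of the pathway list, the called gene of largest change. Other genes were named after their values were seen. Values of some genes are not reported here.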

Additional observations from a re-analysis of the deposited data

How the results depend on the processing

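Over all alternatives, 394 values of the members kept their direction and side of the threshold, 53 lost a call, 20 gained one and 9 turned sign.

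Genes called in LA against control numbered 2814, and 1132 at an adjusted p under 0.01, 4977 by the rule of the study (log2 fold change over 0.5 and unadjusted p under 0.05), 6799 with all 9 libraries, 1519 with the replicate number as a block, 1665 with the length and GC correction, and 253 to 5078 when single libraries were left out. Members called numbered 2, and 1, 4 and 7 under the first 3 of these, 4 with the replicate block and the correction together, and 0 to 4 when libraries were left out. In sgFOS against sgScr 3221 genes were called, and 2023 at 0.01, 818 by the rule of the study, 1817 by DESeq2, 0 with all 9 libraries (444 at an unadjusted p under 0.05) and 1916 to 3518 when libraries were left out. Members called numbered 6, and 1 by the rule of the study and 0 with all 9 libraries. In sgScr against control 6009 genes were called, and 1707 at 0.01, 3480 with the replicate block, 3650 with the block and the correction, and 3 to 11715 when libraries were left out. Members numbered 5, and 2 at 0.01, 3 with the block and 0 to 7 when libraries were left out. In sgScr against LA 3327 genes were called, and 815 at 0.01, 1436 with all 9 libraries, 1230 with the block, 1692 with the block and the correction, and 389 to 9926 when libraries were left out. Members numbered 3, 1 under each of the first 3 of these, and 0 to 6 when libraries were left out. The cause of these shifts was not tested.

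Signs turned for *TGFB3* in sgFOS against sgScr (-0.014 with the block and the correction), for *TGFBR1* in sgScr against control (-0.43 with the correction, -0.41 with the block and the correction, -0.045 to 0.85 when libraries were left out), for *TGFBI* there (-0.014 to 0.35 when libraries were left out), and in sgScr against LA for *SMAD3* (-0.017 with library size alone, -0.060 to 0.15 when libraries were left out), *TGFB2* (-0.60 to 0.25) and *SMAD7* (-0.98 to 0.13).

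The labels give the groups the same replicate numbers, but the deviations of same-numbered libraries correlated between -0.26 and 0.05, so the numbers were not taken to pair them. In LA against control the correlation was -0.26. It is a single value there, as 2 libraries in a group deviate from their mean by equal and opposite amounts. A crossed pairing, added after seeing the data, called 3878 genes and 3 members. With the block, 2 members were called in LA against control, and 3150 genes and 6 members in sgFOS against sgScr. With 2 libraries in an arm, leaving one out assumes that the lone library varies like the other group. Depth limits *TGFB3* and *INHBA*, the latter too low for the test in all 4 comparisons.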
